A study of Mus musculus with 8 samples.

Results

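Of 7 genes that encode transcription factors, surface receptors and a channel of the melanocyte lineage, 6 were among the 10453 genes of the deposited table of mouse B16 melanoma cells: Mitf, Sox10, Kit, Met, Mc1r and Trpm1. They were chosen by gene name, with no measured value in the rule, but earlier results of these data were known at the time. Ednrb, the endothelin receptor B gene on the same list, was not analysed here.

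MITF is a basic helix-loop-helix leucine zipper factor that drives pigment genes and the survival of melanocytes. SOX10, an HMG box factor kept from the neural crest, switches on Mitf and several pigment genes together with it. KIT is the receptor tyrosine kinase for stem cell factor and acts through RAS and MAPK signalling, which in turn modifies MITF protein. MET is the receptor tyrosine kinase for hepatocyte growth factor, and its gene is a known MITF target in melanocytes. MC1R is the G protein coupled receptor for melanocyte-stimulating hormone and raises cAMP, through which Mitf transcription is switched on. TRPM1 (melastatin) is a cation channel whose gene is another MITF target and carries the microRNA gene Mir211 within its span.

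The groups were Mettl5 KO input RNA, WT input RNA, Mettl5 KO footprints and WT footprints, with 2 libraries each and 8 in all. B16 is a pigmented mouse melanoma line grown in DMEM with 10% FBS and Pen/Strep. The KO cells had been edited at Mettl5, the 18S rRNA m6A methyltransferase gene, with CRISPR/Cas9. Both genotypes received cycloheximide before lysis, so that ribosomes stayed on the mRNA, and ribosomal RNA was depleted. The labels do not say whether the KO cells were 1 clone or whether replicates were separate cultures, and the p-values therefore reflect library-to-library variation that could be purely technical. Values are the authors' normalized reads per gene, not divided by gene length, so levels of different genes are not compared.

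Input libraries held 11927567 to 18823632 recovered reads and footprint libraries 2279456 to 3098930. Mettl5 had 75.7 and 95.7 normalized reads in KO input, against 114 and 111 in WT input (log2 fold change -0.40 ± 0.10 (SE), adjusted p = 0.00162), and 109 and 112 in KO footprints against 91.1 and 113 in WT footprints (0.12 ± 0.23, adjusted p = 0.812). Whether the locus carries the edit cannot be read from counts per gene. All 7 melanocyte markers searched (Tyr, Dct, Tyrp1, Pmel, Mlana, Mitf and Sox10) were in the table, with a summed level of 78184 to 78499.6 normalized reads in KO input and 69308 to 69709 in WT input. Of markers of other cell types, 4 of 8 for fibroblasts summed to 142 to 148 in KO input and 125 to 127 in WT input. In footprints the melanocyte sum was 188342 to 189927 in KO and 142768 to 143295 in WT, and the fibroblast sum 251 to 278 in KO and 212 to 229 in WT. The leukocyte, endothelial and epithelial lists had 1 marker each in the table (Cd68, Vwf and Cdh1), with at most 10.7 normalized reads in any input library, and the part of other cells in the results was not tested. In such bulk samples fewer cells of a type and less RNA per cell cannot be told apart.

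In RefSeq on GRCm38.p6, the assembly also called mm10, Mitf (ENSMUSG00000035158.15) spans chr6:97807002-98021360 and Sox10 (ENSMUSG00000033006.9) chr15:79154913-79164490. Kit (ENSMUSG00000005672.12) spans chr5:75574987-75656722 and Met (ENSMUSG00000009376.15) chr6:17463349-17573980. Mc1r (ENSMUSG00000074037.3) spans chr8:123407082-123410744 and Trpm1 (ENSMUSG00000030523.18) chr7:64153835-64269772. The lncRNA gene Gm52893 overlaps Met and the pseudogene Gm15531 lies in Mitf, and whether counting used strand is not stated.

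The promoters below are shown because the MITF targets Trpm1 and Met and the receptor gene Mc1r can be read against the MITF E-box, and the melanocyte promoter of Mitf against the element through which cAMP acts. RefSeq (GRCm38.p6) gave 250 bases before the start of transcription for 5 of the 6 genes, in 9 windows. Both strands were searched for the E-boxes CATGTG and CACGTG, for TGACGTCA, the cAMP response element, and for ACAAAG, a SOX core sequence, and matches are in capitals. No match overlapped another. Positions count back from the start, with -1 the base just before it.
Trpm1, start 1, chr7:64153585-64153834, + strand: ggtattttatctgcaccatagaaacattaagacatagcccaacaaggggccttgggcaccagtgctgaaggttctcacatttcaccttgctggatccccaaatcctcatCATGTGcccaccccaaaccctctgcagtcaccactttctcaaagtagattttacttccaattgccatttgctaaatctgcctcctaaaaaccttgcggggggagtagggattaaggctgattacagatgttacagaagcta
Trpm1, start 2, chr7:64185209-64185458, + strand: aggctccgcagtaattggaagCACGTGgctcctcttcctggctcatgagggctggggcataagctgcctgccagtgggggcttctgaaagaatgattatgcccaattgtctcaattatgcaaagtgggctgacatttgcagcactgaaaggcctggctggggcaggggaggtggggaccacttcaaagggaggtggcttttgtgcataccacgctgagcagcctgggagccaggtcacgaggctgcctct
Met, chr6:17463707-17463956, + strand: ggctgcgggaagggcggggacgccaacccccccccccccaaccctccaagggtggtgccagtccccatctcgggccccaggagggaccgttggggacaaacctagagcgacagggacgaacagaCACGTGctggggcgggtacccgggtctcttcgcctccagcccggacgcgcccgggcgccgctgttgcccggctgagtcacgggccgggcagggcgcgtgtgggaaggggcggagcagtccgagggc
Mc1r, chr8:123406832-123407081, + strand: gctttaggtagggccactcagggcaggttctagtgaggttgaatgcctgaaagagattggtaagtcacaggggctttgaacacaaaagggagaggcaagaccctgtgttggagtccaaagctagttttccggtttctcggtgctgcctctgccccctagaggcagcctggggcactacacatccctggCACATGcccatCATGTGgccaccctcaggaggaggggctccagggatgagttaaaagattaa
Mitf, start 3, chr6:97991533-97991782, + strand: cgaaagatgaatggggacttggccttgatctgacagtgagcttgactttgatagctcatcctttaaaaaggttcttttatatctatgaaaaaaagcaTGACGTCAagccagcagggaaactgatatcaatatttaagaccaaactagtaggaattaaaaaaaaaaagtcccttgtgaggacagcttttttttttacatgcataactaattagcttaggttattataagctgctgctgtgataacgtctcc

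The window of Trpm1 start 1 held CATGTG at -141, and that of start 2 held CACGTG at -229. The Met window held CACGTG at -126. It begins at 17463707, past the first base of the RefSeq span of Met (17463349), so it lies within the annotated gene. Mc1r held CATGTG at -51 and its reverse complement CACATG at -62. The window of Mitf start 3, which is that of the melanocyte isoform, held TGACGTCA at -153, and the other 2 Mitf windows held no match. Neither of the 2 Kit windows, which overlap, held any of the motifs, and ACAAAG was in none of the 9 windows. Over all 32851 RefSeq windows of this length, 17.6% held CATGTG or CACGTG on either strand, 1.55% held TGACGTCA and 16.5% held ACAAAG. These matches describe letters and not bound sites. Base composition set the windows apart: the window of Mitf start 3 was 36.0% G and C, lower than all but 5.81% of windows, while Met had 74.0% and Kit 70.8%, higher than 95.1% and 91.7% of windows.

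Mitf was lower in KO input and higher in KO footprints. Mitf input was 2518 and 2561 normalized reads in the KO libraries, against 2746 and 2703 in the WT libraries. Both KO libraries were below both WT libraries, and Mitf input fell 1.07-fold (log2 fold change -0.10 ± 0.021 (SE), limma adjusted p = 0.000156). Its footprints were 2737 and 2576 in KO, against 2238 and 2324 in WT. Both KO footprint libraries were above both WT libraries, a 1.16-fold rise (0.22 ± 0.049, adjusted p = 0.00282). For the ratio of footprints to input, called translational efficiency here, the log2 fold change was 0.32 ± 0.050 (95% interval 0.21 to 0.43), a rise with an adjusted p of 0.00374. These values are per gene and take in all Mitf isoforms. DESeq2 on the recovered reads gave an adjusted p of 0.0709 for the footprint rise, and 0.0119 for the input decrease. The input decrease did not pass with all 8 libraries fitted together (adjusted p = 0.132), nor without limma's trend (0.13).

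Sox10, in contrast, was higher in both kinds of library by about the same factor. Its input was 3264 and 3235 normalized reads in KO and 2837 and 2819.8 in WT. Every KO library was above every WT library, and Sox10 input rose 1.15-fold (log2 fold change 0.20 ± 0.020, adjusted p = 7.66e-11). Sox10 footprints were 3631 and 3861 in KO, against 3215 and 3209 in WT. They rose 1.17-fold (0.22 ± 0.041, adjusted p = 0.00051), again without overlap between the genotypes. The change of the footprint to input ratio was 0.021 ± 0.043 (adjusted p = 0.816), with a 95% interval from -0.075 to 0.12, and its sign turned to -0.024 without KO footprint replicate 2.

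Met showed the most precise footprint increase of the 6 genes. Its input was 9379 and 9261 normalized reads in KO, against 8714 and 8679 in WT, a 1.07-fold rise (log2 fold change 0.10 ± 0.014, adjusted p = 2.53e-07). Met footprints were 10678 and 10542 in KO, against 7198 and 7198 in WT. The KO footprint libraries were thus far above the WT ones, and both pairs lay close together. Met footprints rose 1.47-fold (0.56 ± 0.026, adjusted p = 2.8e-14), on 7307 reads summed over the KO libraries and 6527 over the WT libraries. The footprint to input ratio rose 1.38-fold (0.46 ± 0.023, 95% interval 0.41 to 0.51, adjusted p = 6.27e-06). This change kept its call under each of 17 alternative settings, with log2 fold changes between 0.45 and 0.47 and a highest adjusted p of 0.0497.

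Kit, the other receptor tyrosine kinase, was covered by few reads. Kit input was 53.1 and 46.9 normalized reads in KO, against 68.2 and 58.9 in WT, and the genotypes did not overlap. Kit input fell 1.27-fold (log2 fold change -0.34 ± 0.12, adjusted p = 0.0291), on 293 summed reads in each genotype. The adjusted p was 0.275 with DESeq2, 0.246 without KO input replicate 2 and 0.234 without WT input replicate 1. Kit footprints were 109 and 67.9 in KO and 82.7 and 124 in WT, from 61 and 93 summed reads. These libraries overlapped, and the change (-0.24 ± 0.27, adjusted p = 0.665, 95% interval -0.80 to 0.33) did not pass. The change of its ratio, 0.10 ± 0.37 (adjusted p = 0.895), also did not pass, and each of these estimates turned sign when single footprint libraries were left out.

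Mc1r, the melanocortin receptor gene, differed from the other receptors in having a low footprint level for its input. Its input was 786 and 766 normalized reads in KO and 786 and 816 in WT, which overlapped (log2 fold change -0.045 ± 0.034, adjusted p = 0.321, 95% interval -0.11 to 0.024). Its footprints were 62.8 and 67.9 in KO, against 78.4 and 101 in WT. Both KO libraries were below both WT libraries, yet the change of -0.44 ± 0.27 did not pass (adjusted p = 0.346), on 45 summed reads in KO and 81 in WT. The change of the ratio was -0.40 ± 0.17 (adjusted p = 0.183, 95% interval -0.78 to -0.017). This SE was below that of the footprint change (0.27), and DESeq2 gave a ratio SE of 0.28. The limma interval of the ratio may therefore be too narrow. The ratio change was -0.58 without WT footprint replicate 1 and -0.21 without WT footprint replicate 2. Calls are not read from these fits, because ratio calls increased in the whole table when a footprint library was left out. The footprint change passed with all 8 libraries fitted together (SE 0.12, adjusted p = 0.0266), which also gives each gene 1 variance for both kinds. It was -0.62 without WT footprint replicate 1 and -0.26 without WT footprint replicate 2. Tubb3, the next gene, starts 808 bases beyond the end of Mc1r in RefSeq, and the sources used here do not say how reads between such close genes were assigned.

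Trpm1, the cation channel gene, had the largest increases among the 6 genes in both kinds of library. Its input was 241 and 237 normalized reads in KO, against 165 and 188 in WT. It rose 1.36-fold (log2 fold change 0.44 ± 0.067, adjusted p = 1.29e-06), and 96.7% of all genes tested had a lower log2 fold change. This call was lost with all 8 libraries fitted together (adjusted p = 0.132). Trpm1 footprints were 106 and 121 in KO, against 44.5 and 55.2 in WT, so that the lower KO library was well above the higher WT one. They rose 2.26-fold (1.17 ± 0.28, adjusted p = 0.0045), above 99.3% of genes, although on only 78 summed reads in KO and 45 in WT. The adjusted p of the footprint change was 0.0657 without WT footprint replicate 1. The ratio changed by 0.74 ± 0.21 (95% interval 0.26 to 1.22), which did not pass (adjusted p = 0.0603). DESeq2 gave it a larger SE of 0.31. The ratio change was 0.83 without KO footprint replicate 1 and 0.64 without KO footprint replicate 2. It was 0.58 without WT footprint replicate 1 and 0.89 without WT footprint replicate 2. Calls of the ratio are not read from these fits, for the reason given for Mc1r. Mir211 and Mir6416 lie within the span of Trpm1 and are not counted separately in the table.

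**Figure D1:**
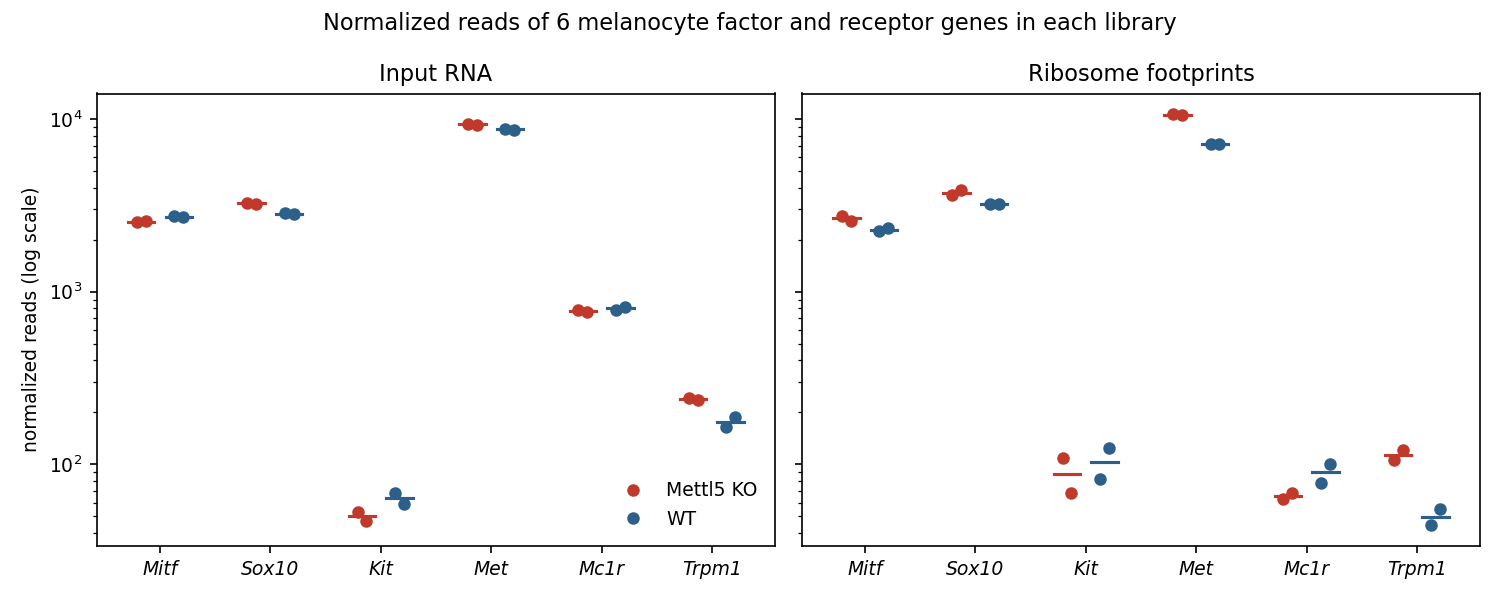
Normalized reads (log scale) of Mitf, Sox10, Kit, Met, Mc1r and Trpm1 in input RNA (left) and ribosome footprints (right). Points are libraries, lines are means of 2 libraries, Mettl5 KO is red and WT is blue; Met footprints were 10678 and 10542 in KO against 7198 and 7198 in WT, while the Kit footprint libraries overlapped.

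The calls of the 6 genes are set here beside those of the whole table. In input, 3 rose (Sox10, Met and Trpm1), 2 fell (Mitf and Kit) and 1 (Mc1r) did not pass, where 36.4% of all genes tested were called, 17.9% higher and 18.6% lower. Their median log2 fold change of 0.028 lay near that of all genes (0.0022), with changes in both directions. In footprints, 4 rose (Mitf, Sox10, Met and Trpm1) and 0 fell, where 12.5% of all genes were called, 6.3% higher and 6.22% lower. The median was 0.22 for the 6 genes and 0.0047 for all genes. In translational efficiency, 2 rose (Mitf and Met) and 0 fell, where 9.78% of genes were called (5.11% higher and 4.66% lower), and the median was 0.21 for the 6 genes and 0.005 for all genes. Libraries of the genotypes did not overlap for 5 of the 6 genes in input and for 5 in footprints, but that was so for 66.4% and 52.7% of all genes. The 3 comparisons share libraries and are not independent of each other. These shares are not matched for reads, and a call is easier to reach with many reads. Footprint libraries held a median of 71 to 98 reads per gene. Mitf, Sox10 and Met had 872 to 3738 reads per footprint library and Trpm1 had 21 to 41. The part of depth in the calls of the 6 genes was not tested.

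Most of these calls depended on how the variance was modelled. In footprints, limma without its trend of variance on level called 0 of 10453 genes (1807 at an unadjusted p under 0.05), so that none of the 4 footprint rises passed there, with adjusted p between 0.197 and 0.33, although the estimates stayed the same. edgeR on the recovered reads made the same calls on the 6 genes as limma in all 3 comparisons, where its calls covered 36.8% of genes (input), 15.8% (footprints) and 13% (translational efficiency). DESeq2 called 16.5%, 8.87% and 11.9% of genes in these comparisons. It called both ratio changes (Mitf and Met) but not Kit in input or Mitf in footprints. For the Trpm1 footprint rise it gave no adjusted p (DESeq2 unadjusted p = 0.00727).

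**Figure D2:**
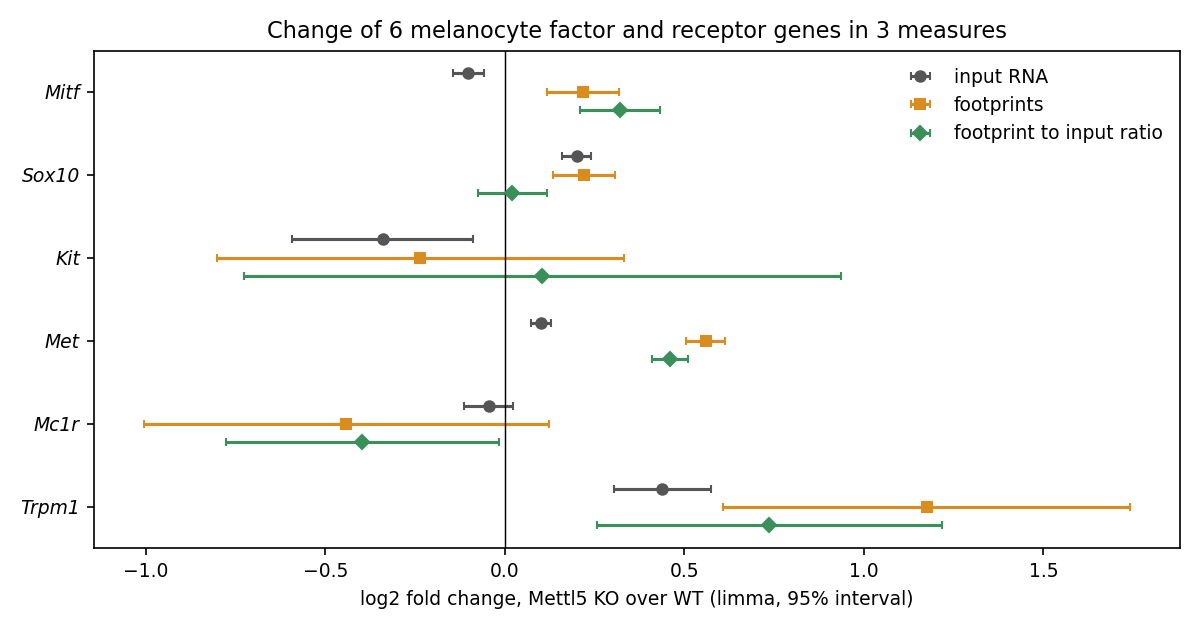
Log2 fold change of Mettl5 KO over WT for each gene in input RNA (circles), footprints (squares) and the footprint to input ratio (diamonds), with 95% intervals from limma. Intervals are narrow for Met, Sox10 and Mitf and wide for Kit, whose footprint change ran from -0.80 to 0.33.

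The estimated fold changes of footprints and input placed the 6 genes differently. Sox10 lay close to the line of equal change (0.20 in input and 0.22 in footprints). Met, Trpm1, Mitf and Kit lay above it, and Mc1r below it. The distance from the line is the ratio change, which passed for Met and Mitf only. Of the 6, Mitf alone had called changes of opposite sign (-0.10 and 0.22), of which the input call was lost with all 8 libraries fitted together. Both calls were lost in limma without its trend (adjusted p = 0.13 and 0.33). The footprint call was also lost with DESeq2 (adjusted p = 0.0709).

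**Figure D3:**
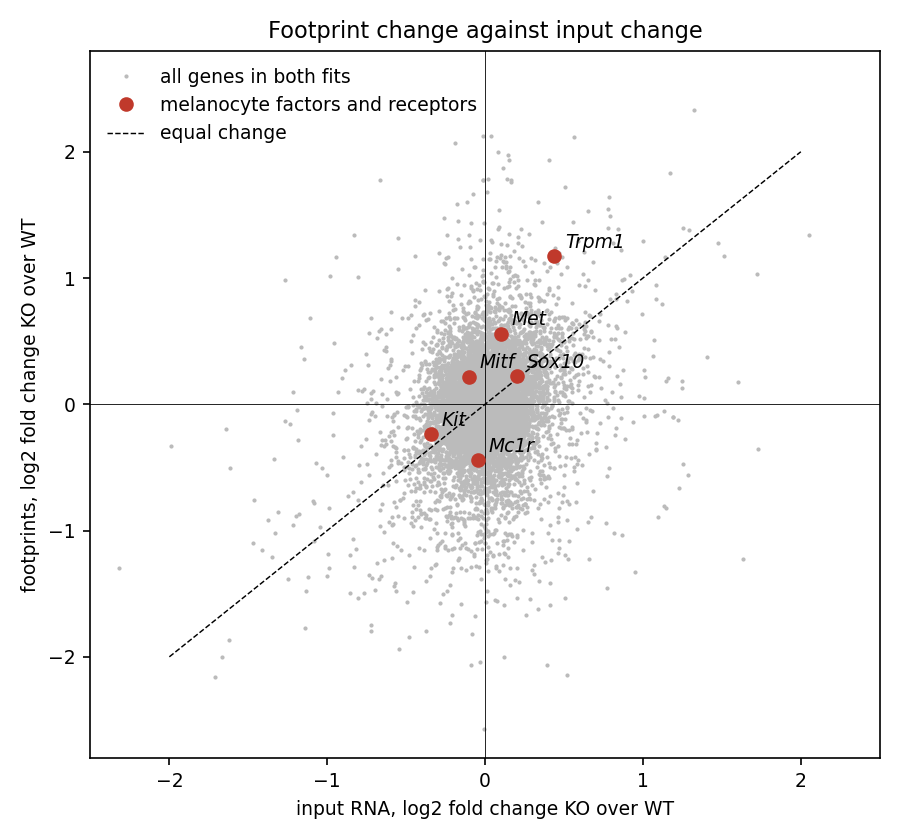
Log2 fold change of KO over WT in footprints (vertical) against input RNA (horizontal) for all genes in both comparisons (grey) and the 6 genes (red), with the dashed line of equal change. Trpm1 lies at 0.44 and 1.17, Met at 0.10 and 0.56, and Mitf at -0.10 and 0.22.

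As levels, the footprint to input ratios of the 6 genes spanned a wide range in both genotypes. This ratio compares normalized values within a gene, and it is not corrected for untranslated sequence, which gives input reads but few footprints. Mc1r had the lowest ratio of the 6, 0.0842 in KO and 0.112 in WT, at percentile 2.28 of all genes in KO and 3.1 in WT. Trpm1 followed at 0.474 in KO and 0.282 in WT, which placed it at percentile 21.0 in KO and 10.6 in WT. Met stood at 1.14 in KO against 0.828 in WT, and Mitf at 1.05 against 0.837, at percentiles 56.2 and 41.1 for Met, and 52.0 and 41.7 for Mitf, in KO and WT. Sox10 had 1.15 in KO and 1.14 in WT. Kit had the highest mean ratio, 1.77 in KO and 1.63 in WT, but its log2 ratios of 1.03 and 0.53 in KO and of 0.28 and 1.08 in WT overlapped. In KO, the log2 ratios of Met (0.19 and 0.19) lay between those of Sox10 (0.15 and 0.26), and in WT those of Met (-0.28 and -0.27) lay between those of Mitf (-0.30 and -0.22), so these neighbours in the order did not differ beyond their spread.

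**Figure D4:**
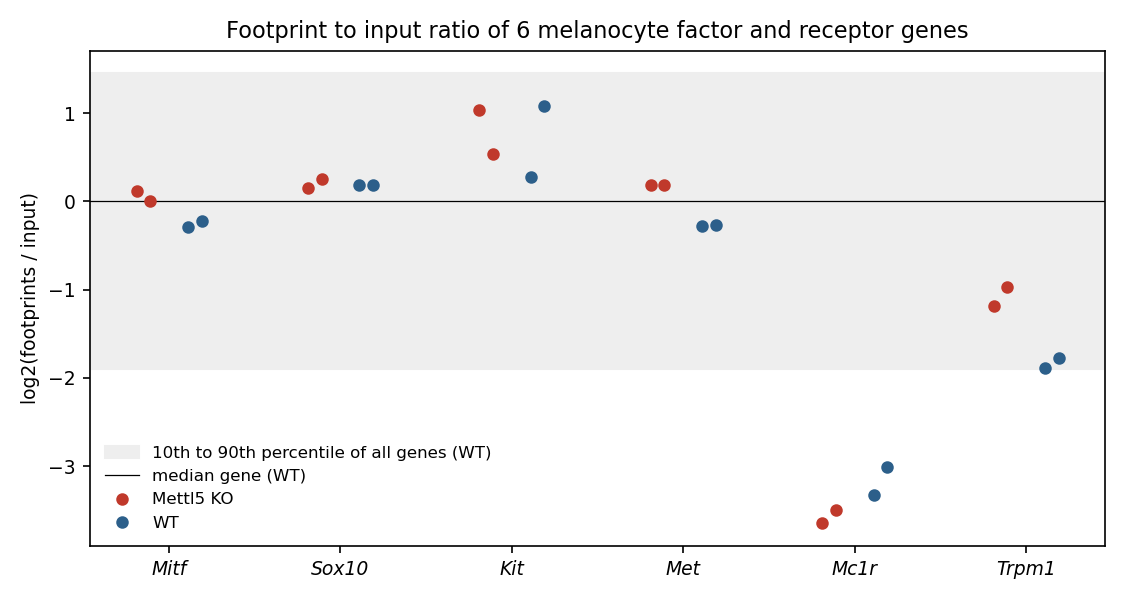
Log2 ratio of footprints to input for each gene, per genotype and replicate number (Mettl5 KO red, WT blue). The grey band holds the 10th to 90th percentile of all genes in WT (-1.90 to 1.45) and the line is their median; Mc1r lies below the band in both genotypes.

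In the authors' deposited table, the log2 fold change of translational efficiency was 0.46 for Met (adjusted p = 2.02e-40), 0.32 for Mitf (adjusted p = 4.3e-06), 0.75 for Trpm1 (adjusted p = 0.0975) and -0.41 for Mc1r (adjusted p = 0.399). None of the 6 genes was among the 277 genes called Up or Down in the authors' deposited table, whose calls had an absolute log2 fold change of at least 0.581.

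The genes with the most similar pattern over the 8 libraries were found by the root mean square difference of log2 values, each centred on the WT mean of its kind of library, among 7881 genes with at least 100 summed footprint reads. Srrm2 (0.024) and Cdk13 (0.025) were nearest to Mitf. Srrm2 likewise fell in input (-0.12) and rose in footprints (0.25). Cdk13 had the same directions (-0.097 and 0.20), but neither change passed (limma adjusted p = 0.0566 and 0.355). Mgat5 (0.022) and Washc1 (0.022) were nearest to Sox10. Mrm3 (0.033) and Erf (0.036) were nearest to Met. Aplf (0.034) and Slc37a1 (0.049) were nearest to Mc1r. For Kit (Acvr2a, 0.12, and Dmtf1, 0.13) and Trpm1 (Vsig10, 0.14, and Rps10, 0.15) no gene lay as close. Rps10, a ribosomal protein gene with pseudogene copies, may share reads with them.

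The counts of called genes in the lists that follow are to be read against the shares called among all genes. These were 36.4% (input), 12.5% (footprints) and 9.78% (translational efficiency). A call is also easier to reach for a gene with many reads. Footprint libraries held a median of 71 to 98 reads per gene, while Pmel, among the MITF and SOX10 targets, had 39743 summed in KO. The part of depth in the shares was not tested.

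Genes known to be switched on by MITF or SOX10 in pigment cells were mostly higher in KO input. Of the 30 measured of 37, without Met and Trpm1, 22 rose and 2 fell in input, so that 80% of them were called, with a median log2 fold change of 0.16 against 0.0022 for all genes. Ppargc1a, a coactivator of mitochondrial genes, rose most (362 ± 1.72 normalized reads in KO and 212 ± 18.9 in WT, SD of 2 libraries each). Its log2 fold change was 0.77 ± 0.058 with an adjusted p of 4.8e-14. Cited1, a transcriptional coregulator, rose by 0.76. The count of 22 was 10 without limma's trend and 14 with all 8 libraries fitted together, and the count of 2 that fell was 1 without any 1 of the input libraries. In footprints 9 rose and 2 fell (36.7% called), with a median of 0.052, and 7 rose and 1 fell without WT footprint replicate 2. The melanin enzyme gene Tyrp1 (0.65) and the melanosome fibril gene Pmel (0.42) rose, while the cell cycle inhibitor gene Cdkn1a fell by 0.51. In translational efficiency 6 rose and 8 fell (46.7% called). Fewer of them were called without any 1 of the input libraries, and the lost calls were mostly falls. Ratio calls then became fewer in the whole table too. Whether the input values of these genes in particular played a part was not tested. Ppargc1a (-0.76), Cited1 (-0.72) and Cdkn1a (-0.52) fell most in translational efficiency. Footprint changes of Ppargc1a (0.012) and Cited1 (0.037) did not pass, and their input rose, while Cdkn1a fell in footprints.

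Other transcription factors of melanocytes and the neural crest moved in both directions. Of 29, 14 were measured, and in input 3 rose and 5 fell (57.1% called). Snai2 (0.59) and Sox9 (0.50), both factors of the neural crest, rose, and the orphan nuclear receptor gene Nr2f2 fell by 0.51. Snai2 rested on 127 summed input reads in KO and 65 in WT (limma adjusted p = 0.0254). In input 0 rose and 3 fell without limma's trend, and 0 rose and 2 fell with all 8 libraries fitted together. In footprints 0 rose and 1 fell, a share of 7.14% that is below that of all genes. That gene, the ETS factor Ets1, had 3653 ± 77.9 normalized footprint reads in KO and 4643 ± 54.4 in WT (log2 fold change -0.35 ± 0.037, adjusted p = 1.66e-07). Its translational efficiency fell too (-0.26), while that of Sox11 (0.32) and Zeb2 (0.25) rose (21.4% of the list called). Both rises lost their call without any 1 of the 4 input libraries, where ratio calls became fewer in the whole table too. In footprints 1 gene rose without WT footprint replicate 2, and 2 fell without KO footprint replicate 2.

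Among MITF relatives and proteins that act on MITF, 17 of 19 were measured. In input 8 rose and 1 fell (52.9% called), led by Rragd (0.44), a GTPase of lysosomal nutrient sensing, Hint1 (0.23), a MITF-binding protein, and Lamtor1 (0.15), a lysosomal anchor. In footprints 4 rose and 0 fell (23.5% called). The coactivator genes Crebbp (0.42) and Ep300 (0.29) and the chromatin remodelling ATPase gene Smarca4 (0.26) rose most. Translational efficiency rose for 2 genes and fell for 2 (23.5% called), among them Crebbp (0.52), the kinase gene Gsk3a (-0.44) and Hint1 (-0.26). DESeq2 called 3 higher and 0 lower in input and 2 higher in footprints. Leaving out 1 library, the ratio counts ran from 1 higher and 1 lower without KO input replicate 2 to 4 higher and 3 lower without KO footprint replicate 1.

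Receptor tyrosine kinases other than Kit and Met gave 14 of 26 measured genes. In input 3 rose and 3 fell (42.9% called), and 2 rose and 1 fell without KO input replicate 1. Ephb4, an ephrin receptor gene, rose by 0.33, and Erbb3, the neuregulin receptor gene, and Axl fell by 0.40 and 0.31. In footprints 2 rose, Erbb2 (0.61) and Pdgfrb (0.57), and 0 fell, a share of 14.3% that is near that of all genes. Both calls were lost without WT footprint replicate 2 and with DESeq2, and the count was 1 without KO footprint replicate 2 or WT footprint replicate 1. In translational efficiency limma called 1 of the 14 over all libraries and 4 without WT footprint replicate 1. The 1 was Erbb3 (0.49 ± 0.081, adjusted p = 0.00509), with 806 ± 4.69 normalized footprint reads in KO against 758 ± 40.7 in WT, and 460.3 ± 10.4 input reads in KO against 607 ± 17.6 in WT.

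For signalling from MC1R and related G protein coupled receptors, 32 of 34 genes were measured. In input 9 rose and 6 fell (46.9% called), and the count that fell was 3 without KO input replicate 2 or WT input replicate 2. Prkaca, the catalytic subunit gene of cAMP-dependent protein kinase, rose most in input (1239 ± 0.0615 normalized reads in KO and 822 ± 25.2 in WT, log2 fold change 0.59 ± 0.031, adjusted p = 9.55e-19), and its footprints rose by 0.35. The phosphodiesterase gene Pde4d rose by 0.50 and the phospholipase gene Plcb4 fell by 0.45. In footprints 2 rose and 1 fell, a share of 9.38% that is below that of all genes, and the same counts in the ratio are close to theirs. Gnas, which encodes the stimulatory G protein subunit, had 945 ± 51.1 normalized footprint reads in KO and 1562 ± 72.4 in WT (-0.73 ± 0.068, adjusted p = 1.52e-08), and its translational efficiency fell by 0.83. Crtc3, a CREB coactivator gene, rose by 1.35 in footprints, on 61 reads in KO and 31 in WT. The ratio also rose for Crtc3 (1.19) and for Prkar2b (0.54), a regulatory subunit gene of the kinase. Leaving out 1 library, the count that rose in footprints reached 4 without either KO footprint library. In the ratio it ran from 0 without KO input replicate 2 to 4 without KO footprint replicate 2, and 3 fell without WT footprint replicate 1.

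For RAS and MAPK signalling, which KIT and MET use, 28 of 30 genes were measured. In input 5 rose and 8 fell (46.4% called). Mapk3, which encodes ERK1, rose by 0.46, while the kinase genes Braf and Rps6ka3 fell by 0.42 and 0.41. In footprints 1 rose and 3 fell, a share of 14.3% that is near that of all genes, and 0 rose and 1 fell without WT footprint replicate 2 and with DESeq2. Dusp6, a phosphatase of ERK, had 857 ± 36.7 normalized footprint reads in KO and 1346 ± 44.3 in WT (-0.65 ± 0.071, adjusted p = 1.88e-07). Footprints of Spry2 fell by 1.21, on 38 reads in KO and 114 in WT, and those of Rps6ka3 by 0.28. Other genes on the list also restrain this pathway. Footprint changes of Dusp4 (0.12), Spry1 (-0.15), Spred1 (-0.16), Spred2 (-0.58), Nf1 (0.12), Cbl (0.15) and Cblb (0.019) did not pass. Translational efficiency rose for 0 genes and fell for 3 (10.7% called), Spry2 (-1.13), Mapk3 (-0.69) and Dusp6 (-0.56). Without WT footprint replicate 2, 3 rose and 2 fell, and 2 rose and 4 fell without KO footprint replicate 2.

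**Figure D5:**
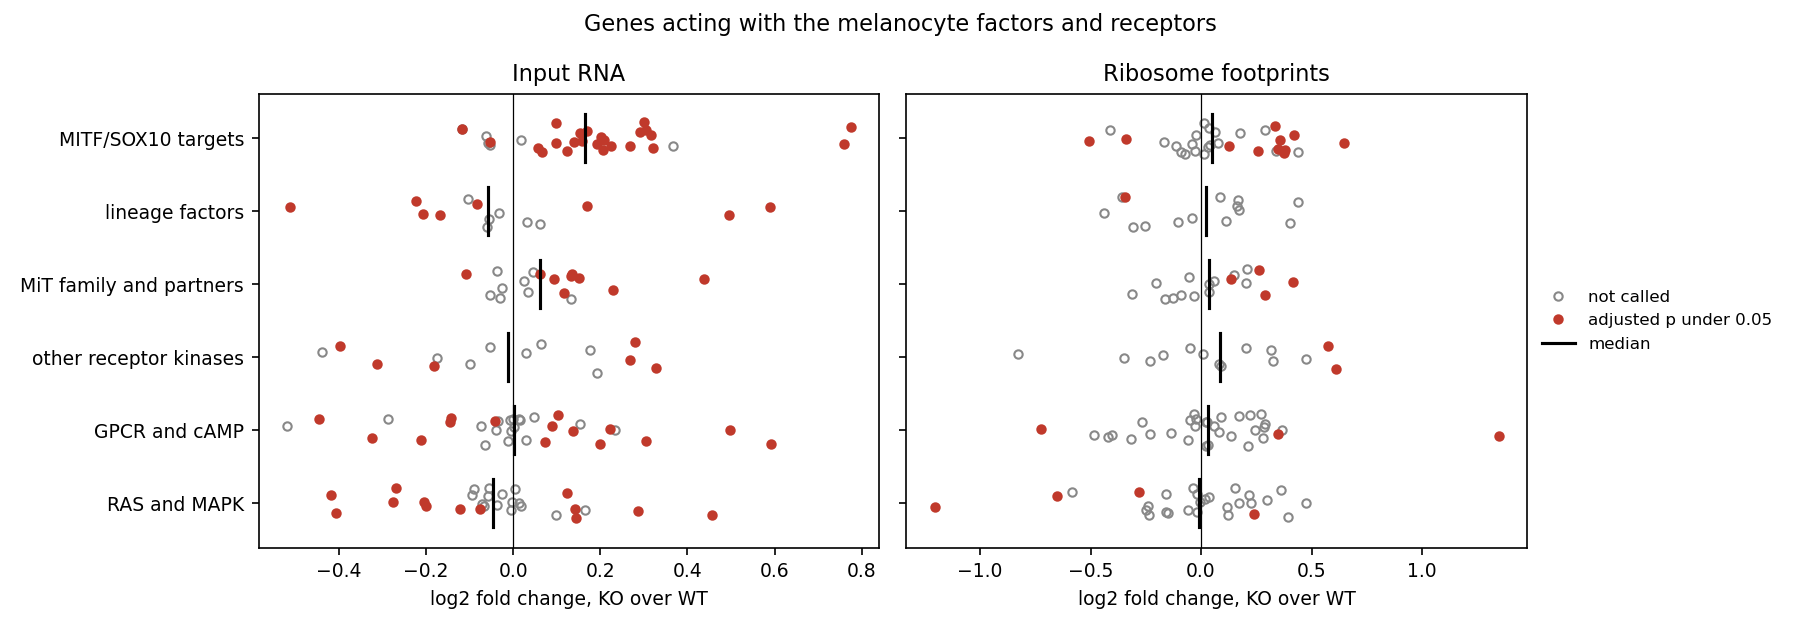
Log2 fold change of KO over WT in input RNA (left) and footprints (right) for the measured genes of 6 lists, red where the adjusted p was under 0.05, with a black line at each list's median. MITF and SOX10 targets have the highest median in input (0.16).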

How the data were processed

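The authors deposited 1 table of normalized read counts, treated here as signal values, for 4 input and 4 footprint libraries, 2 per group. It also holds their log2 fold change of translational efficiency with its p-value and adjusted p-value, per the file headers. The submitters' processing notes name Bowtie and mm10. The sources used here do not give the counter, the annotation, the strand setting or how reads with several matches were handled. All values were whole multiples of what 1 read is worth in their library (100% within 0.001 of a read), which gave back the reads. Every listed gene had 1 read or more in each library. No sample column stayed unmapped, and 16 symbols turned into dates were restored by gene ID.

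limma-trend (limma 3.58.1 under R 4.3.3) was run over all genes whose mean was at least 1, after adding a pseudocount of 1 and taking log2, two-sided, with Benjamini-Hochberg adjustment at 0.05. Fold changes on this scale understate those of low genes. Inputs and footprints were fitted separately. Translational efficiency was tested as the genotype by library kind interaction across 8 libraries, which gives each gene 1 variance for both kinds. The SE of the ratio change was 0.17 for Mc1r, 0.21 for Trpm1 and 0.023 for Met. That of the footprint change alone was higher (0.27, 0.28 and 0.026), which was not so for Mitf, Sox10 and Kit. DESeq2 gave ratio SEs of 0.28, 0.31 and 0.033 for Mc1r, Trpm1 and Met. The limma intervals of the ratio may therefore be too narrow. edgeR 4.0.16 and DESeq2 1.42.0 on the recovered reads were alternatives, and the fits were tested on simulated data. DESeq2 on the recovered reads differed from the authors' deposited log2 fold changes by over 0.001 in 0 of 10453 genes. The genes, lists and tests were chosen with earlier results of these data known. Named genes are the 6 genes, Mettl5, up to 3 called genes with the largest change per list and comparison, and the 2 most similar genes. 1 gene that this rule names, and the marker sum that holds it, are not reported here.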

Additional observations from a re-analysis of the deposited data

Results flagged for a closer look

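The change in footprints differed from the change in input by the interaction test of the limma fit for 2 of the 6 genes. For Met the difference was 0.46 on the log2 scale (adjusted p = 6.27e-06), with a footprint change of 0.56 and an input change of 0.10. For Mitf it was 0.321 (adjusted p = 0.00374), with a footprint change of 0.22 and an input change of -0.10. With 2 libraries per group, no sample of a group could be assessed as far from the others.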

How the results depend on the processing

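Over the 18 results of the 6 genes and their alternatives, 230 of 255 kept direction and side of the threshold, 16 lost the call, 4 gained one and 5 turned sign. The 5 were Kit footprints without KO footprint replicate 2 (0.099) and without WT footprint replicate 2 (0.055), Kit translational efficiency without KO footprint replicate 1 (-0.23) and without WT footprint replicate 1 (-0.19), and Sox10 translational efficiency without KO footprint replicate 2 (-0.024). With 1 library left out, Kit footprints ranged from -0.57 to 0.099, Kit translational efficiency from -0.23 to 0.44 and Sox10 translational efficiency from -0.024 to 0.065. DESeq2 gave no adjusted p for Kit, Trpm1 and Mc1r footprints. Without limma's trend, the calls of Mitf in all 3 comparisons, of Kit and Met in input and of Sox10, Met and Trpm1 in footprints were lost; the cause was not tested.

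Counts of called genes moved most with the variance model. Input calls (3803) were 1276 without the trend, 1721 with DESeq2 and 829 with all 8 libraries together. Footprint calls (1309) were 0 without the trend in limma (1807 at an unadjusted p under 0.05, 1473 with edgeR), 460 with DESeq2, 2311 with all libraries together, and 788 to 1391 with 1 library left out. Translational efficiency calls (1021) were 133 without the trend and 419 to 1719 with 1 library left out. With 1 library left out, input calls were 2856 to 3442.

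The replicate number as a block gave 3877, 1548 and 938 calls, and changed no call of the 6 genes. Replicate differences did not correlate between groups with the same numbers (Pearson r from -0.024 to 0.013 over 5925 genes). Within groups, the variance between replicates was only 1.10 (WT input) to 1.21 (KO input) times that of random read sampling. Paired libraries would thus share little difference that could correlate, and whether the numbers pair the libraries cannot be decided from these correlations. Calls on MITF and SOX10 targets in input ranged from 10 to 22 higher and 0 to 2 lower. Footprint depth limits Kit, Mc1r and Trpm1, which had 21 to 54 reads per library.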

Other observations

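Of 8 ligands of these receptors, 1 was measured: Kitl, the ligand of KIT. Kitl input was 28.2 and 28.5 normalized reads in KO and 28.3 and 22.7 in WT (log2 fold change 0.16 ± 0.17 (SE), limma adjusted p = 0.519). Its footprints rested on 6 and 2 reads in KO and 1 and 4 in WT, too few to show a difference (adjusted p = 0.442).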
